A study of Mus musculus with 46 samples.

Results

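The miRNAs mmu-miR-205, mmu-miR-203 and mmu-miR-31 (miR-205, miR-203 and miR-31 below) are known from stratified epithelium and from the basal, myoepithelial layer of glands, and their levels were followed across mouse mammary tumors and normal mammary gland. They were taken by name from the array, where 3 of 3 were present among 334 mouse miRNAs, each on 4 spots. The rule uses names alone and no measured value, although earlier results of these data were known when the names were picked. The series holds 41 primary mammary tumors of female mice and 5 normal mammary glands, with 1 array of total RNA per sample. Luminal tumors came from 5 transgenic models on the FVB strain in which the mouse mammary tumor virus promoter, active in mammary epithelium, drives an oncogene. These were MMTV-C-Myc (4 tumors), MMTV-H2N (Her2/neu, 5 tumors), MMTV-Hras (5 tumors), MMTV-PymT (polyoma middle T antigen, 6 tumors) and MMTV-Wnt (Wnt1, 4 tumors). Basal tumors came from C3TAg mice (simian virus large T antigen, FVB, 5 tumors), from p53-/- tissue (Balb/C, 7 tumors) and from Brca1-/-p53+/- mice (129B6/FVB, 5 tumors). In the study's description the p53-/- tumors were transplants, and both knockout models carried Cre recombinase driven by the same viral promoter. The gene that Cre removes was p53 in the former and Brca1 in the latter, whose p53+/- state is not written as a Cre target. The study adds that this promoter is often active outside the mammary gland as well. The normal glands were those of pregnant FVB mice. Basal and luminal are the study's classes of models, and no protein-coding marker was measured on these arrays. Strain and model cannot be told apart for p53-/- and Brca1-/-p53+/- tumors.

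As background, a miRNA lowers the output of mRNAs that pair with its seed, the stretch of bases near its 5′ end. miR-205 is abundant in the basal layer of skin and in myoepithelial cells and targets the transcription factors Zeb1 and Zeb2, which it shares with the miR-200 family of epithelial miRNAs. miR-203 is known as the miRNA of differentiating suprabasal keratinocytes and targets p63, the master regulator of basal cells. miR-31 is abundant in keratinocytes and hair follicles and has been tied to Wnt signalling in the mammary gland.

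The mature sequences are shown because the seeds set which mRNAs each miRNA can pair with, and because they differ among the 3. Capitals mark the seed, bases 2 to 8. The array names carry no arm, and the arm shown is the one that the older name commonly stands for. Sequences and positions are from RefSeq on GRCm38.p6.
mmu-miR-205-5p: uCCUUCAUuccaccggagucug
mmu-miR-203-3p: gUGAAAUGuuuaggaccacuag
mmu-miR-31-5p: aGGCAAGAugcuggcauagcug
Each mature miRNA is 22 bases long. The first lies at chr1:193507503-193507524 on the minus strand, in a hairpin (Mir205) inside the long noncoding RNA gene Mir205hg. The second lies at chr12:112130927-112130948 on the plus strand, in a hairpin (Mir203) that overlaps a further annotated miRNA gene, Gm51289. The third lies at chr4:88910614-88910635 on the minus strand, in a hairpin (Mir31) that overlaps the long noncoding RNA gene Gm49890. The 3 genes are on different chromosomes. Among 1737 other mature mouse miRNAs, 0 shared the seed of miR-205, 0 that of miR-203 and 0 that of miR-31. The nearest other mature sequence was 7 edits away for miR-205, 6 for miR-203 (miR-203b-3p) and 6 for miR-31.

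The miR-200 family, used here as the yardstick of epithelial miRNAs, has 5 members on the array with closely related seeds. The sequences are shown because miR-205 is compared with them on each array.
mmu-miR-200a-3p: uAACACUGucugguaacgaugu
mmu-miR-200b-3p: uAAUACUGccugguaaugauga
mmu-miR-200c-3p: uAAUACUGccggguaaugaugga
mmu-miR-141-3p: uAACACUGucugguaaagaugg
mmu-miR-429-3p: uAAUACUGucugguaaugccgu
The family lies in a cluster on chromosome 4 (miR-200a, miR-200b and miR-429) and a cluster on chromosome 6 (miR-200c and miR-141), the first far from Mir31 on the same chromosome.

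Signals below are geometric means of the 4 spots in array units, before scaling. Levels are log2 signal minus the median log2 signal of the array, and every difference between groups is on that scale unless stated. The floor of an array is the 5th percentile of its spots, and a miRNA was counted as measured when its signal was above 3 times the floor. Arrays differed in this respect. Between 31 and 85 of the 334 miRNAs were above 3 times the floor on C3TAg arrays and between 91 and 111 on p53-/- arrays, against 168 to 274 on Brca1-/-p53+/- arrays, 172 to 304 on luminal arrays and at most 236 on normal gland arrays. The median of all miRNAs moved with the scaling chosen. Basal minus luminal, it was 0.55 after median scaling, 1.89 after scaling to the 75th percentile and -0.83 without scaling, and the split of calls was 149 higher and 87 lower, 228 higher and 52 lower, and 66 higher and 158 lower, respectively. Normal gland minus the 8 models, 27.5% were higher and 37.7% lower after median scaling, and 47 were higher and 182 lower at the 75th percentile. For this reason differences between miRNAs on the same array, which no scaling touches, are given as well. Tumors were from individual mice. For the normal glands no source used here says whether they came from separate animals, so p-values measure the spread between these samples.

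miR-205 was the member measured on every array, with 46 of 46 arrays above that limit. Its signal ran from 182.7 to 58270 with a median of 1937. In normal gland the signals were 4857, 5584, 6439, 12321 and 20639. MMTV-Hras tumors gave 602.9, 766.1, 696.8, 1145 and 802.5, all below every normal gland. MMTV-H2N tumors gave 798.6, 1695, 1133, 747.4 and 1402, also all below every normal gland. Both groups were tight, with standard deviations of the level of 0.53 (n = 5) in MMTV-Hras and 0.57 (n = 5) in MMTV-H2N. C3TAg tumors had signals of 918.2, 1558, 2147, 928.7 and 836.0, and did not overlap normal gland either. The share of all miRNAs without such overlap was not counted. MMTV-PymT tumors ranged from 3221 to 15008 with a median of 8581 and overlapped normal gland. MMTV-C-Myc tumors gave 2900, 2570, 5329 and 1380.

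The remaining models held single tumors far from the rest. In MMTV-Wnt the signals were 58270, 56090, 281.7 and 40667, so that 3 tumors had the highest unscaled miR-205 signals of the series. By level, p53-/- replicate 7 (6.08) lay above MMTV-Wnt replicates 1 (5.07) and 2 (5.92) and below replicate 4 (6.37). MMTV-Wnt replicate 3 had the lowest level (-2.35), while the lowest signal was that of Brca1-/-p53+/- replicate 3. In Brca1-/-p53+/- tumors the signals were 12021, 1131, 182.7, 1949 and 2429, a spread of 65.8-fold. In p53-/- tumors they ranged from 433.4 to 13748 with a median of 1403, the highest being replicate 7. That tumor differed from the mean of the other p53-/- tumors by 2.52 in miR-205, the largest rise among all 334 miRNAs on that array. Brca1-/-p53+/- replicate 1 likewise had miR-205 as its most raised miRNA, by 3.90. Brca1-/-p53+/- replicate 3 had it as the second lowest of 334, at -2.67. These ranks describe single arrays and carry no test.

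**Figure D1:**
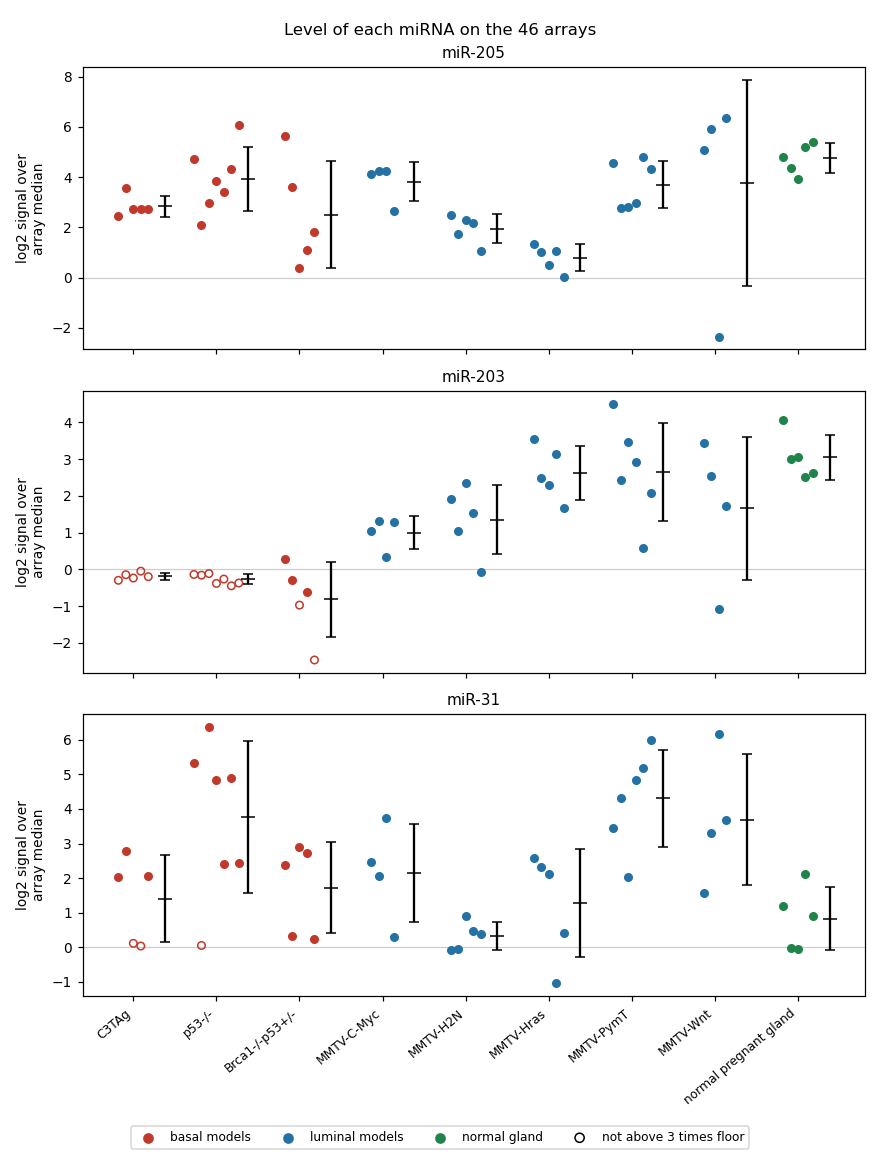
Level of miR-205, miR-203 and miR-31 (log2 signal over the array median, y axis) on each of the 46 arrays, by group (x axis), with mean and SD as black bars; open circles are values not above 3 times the floor. miR-203 is at the floor on all C3TAg and p53-/- arrays, and MMTV-Wnt replicate 3 is the lowest array for miR-205 and the highest of its group for miR-31.

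By mean level, the order for miR-205 was normal gland (4.75 ± 0.59, SD, n = 5), p53-/- (3.92 ± 1.29, n = 7), MMTV-C-Myc (3.81 ± 0.77, n = 4), MMTV-Wnt (3.75 ± 4.11, n = 4), MMTV-PymT (3.70 ± 0.95, n = 6), C3TAg (2.84 ± 0.42, n = 5), Brca1-/-p53+/- (2.50 ± 2.12, n = 5), MMTV-H2N (1.95 ± 0.57, n = 5) and MMTV-Hras (0.79 ± 0.53, n = 5). No neighbours in that order differed in limma (adjusted p from 0.266 to 0.971 for the 8 steps). The 9 groups as a whole did differ (limma F test, adjusted p = 0.00233), a test that 98.2% of all miRNAs passed. Of 36 pairs of groups 9 passed for miR-205, where over all pairs and miRNAs 56.2% passed (15.6% to 78.7% in single pairs). MMTV-Hras was the model set apart. It was below the mean of the other 8 groups by a log2 difference of -2.61 ± 0.68 (SE, limma adjusted p = 0.000924), in a comparison where 59.9% of all miRNAs passed. Of the other 8 groups, normal gland passed and the 7 tumor models did not.

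Of the 3 members, miR-203 divided the models most clearly. Of 46 arrays, 32 measured it, namely 24 of 24 luminal tumors, 5 of 5 normal glands and 3 of 17 basal tumors. On C3TAg arrays its signals were 137.8, 119.9, 273.8, 134.7 and 108.8, between 1.02 and 1.18 times the floor. On p53-/- arrays they ranged from 69.6 to 156.4 with a median of 87.4, at most 1.43 times the floor. There miR-203 has only an upper bound. Brca1-/-p53+/- tumors gave 293.9, 75, 72.0, 585.1 and 126.4, of which replicates 1, 2 and 4 were above 3 times the floor. All of the luminal tumors were brighter, in unscaled signal, than the median basal signal of 117.9, itself only 1.29 times the floor of its array. The classes overlapped nonetheless. Brca1-/-p53+/- replicate 4 was above every MMTV-C-Myc tumor (338.1 to 538.0). By level, MMTV-Wnt replicate 3 (-1.07) lay below all C3TAg and p53-/- arrays (-0.45 to -0.05).

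Luminal models differed among themselves. MMTV-C-Myc tumors were low at 345.9, 338.1, 359.6 and 538.0, and MMTV-H2N tumors gave 525.9, 1043, 1182, 487.8 and 637.5. MMTV-Hras tumors gave 2763, 2107, 2460, 4806 and 2529, and normal glands 2882, 2165, 3462, 1892 and 3058. The signals of these groups overlapped. MMTV-PymT tumors spread from 653.4 to 14412 with a median of 3839, and MMTV-Wnt tumors from 686.4 to 18707, with replicate 3 the lowest again. The order of mean levels was normal gland (3.05 ± 0.61, SD, n = 5), MMTV-PymT (2.66 ± 1.33, n = 6), MMTV-Hras (2.63 ± 0.73, n = 5), MMTV-Wnt (1.66 ± 1.95, n = 4), MMTV-H2N (1.35 ± 0.93, n = 5), MMTV-C-Myc (1.00 ± 0.45, n = 4), C3TAg (-0.19 ± 0.09, n = 5), p53-/- (-0.27 ± 0.13, n = 7) and Brca1-/-p53+/- (-0.82 ± 1.03, n = 5). The small standard deviations of C3TAg and p53-/- are those of values at the floor. No neighbours differed (limma adjusted p from 0.0713 to 0.986). The groups differed as a whole (limma F test, adjusted p = 1.70e-09), as they did for 98.2% of all miRNAs. Of 36 pairs 22 passed, the most of the 3 members but near the 56.2% that passed over all pairs and miRNAs.

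miR-31 followed neither pattern. The arrays that measured it numbered 43 of 46, the exceptions being C3TAg replicates 3 and 4 and p53-/- replicate 2. The highest group was MMTV-PymT, with a range of 2927 to 38212 and a median of 12732. MMTV-Wnt tumors gave 5135, 9181, 104645 and 6363, where the highest unscaled signal of the series belonged to replicate 3. By level that tumor (6.18) lay below p53-/- replicate 3 (6.37). Normal glands were low at 394.4, 261.9, 405.2, 1450 and 923.4. MMTV-H2N tumors were the lowest group by level, at 132.6, 492.5, 434.2, 229.1 and 875.7.

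Within p53-/- the miR-31 signal ran from 105.4 to 10594 with a median of 2824, a spread of 100.5-fold between tumors of 1 model. p53-/- replicate 2, at the floor, had miR-31 as its lowest of 334 miRNAs against the other p53-/- tumors, at -4.34, and miR-205 as its second lowest, at -2.14. Brca1-/-p53+/- tumors gave 1271, 116.1, 1061, 6015 and 825.2, and MMTV-C-Myc tumors 928.0, 568.8, 3780 and 269.4. In MMTV-Hras 4 tumors gave 1408, 1902, 2166 and 1043, and replicate 4 gave 262.4. In each of these models 1 or more tumors lay within the range of the normal glands. C3TAg tumors gave 690.9, 917.3, 347.7, 142.3 and 521.9. The order of mean levels was MMTV-PymT (4.31 ± 1.40, SD, n = 6), p53-/- (3.76 ± 2.21, n = 7), MMTV-Wnt (3.69 ± 1.90, n = 4), MMTV-C-Myc (2.14 ± 1.42, n = 4), Brca1-/-p53+/- (1.72 ± 1.32, n = 5), C3TAg (1.40 ± 1.26, n = 5), MMTV-Hras (1.27 ± 1.56, n = 5), normal gland (0.83 ± 0.91, n = 5) and MMTV-H2N (0.32 ± 0.40, n = 5). No neighbours differed (limma adjusted p from 0.168 to 0.947). The groups differed as a whole (limma F test, adjusted p = 4.41e-05), as they did for 98.2% of all miRNAs. Of 36 pairs 15 passed, beside 56.2% over all pairs and miRNAs.

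The 4 spots of a miRNA spread by a median SD of 0.18 on the log2 scale for miR-205, 0.18 for miR-203 and 0.27 for miR-31, against 0.25 over all miRNAs. Groups differed in this. For miR-205 the median was 0.96 in C3TAg and 0.96 in p53-/-, against 0.06 to 0.24 in the other groups. For miR-31 it was 1.70 in Brca1-/-p53+/-, 1.07 in MMTV-H2N and 1.02 in MMTV-C-Myc, against 0.11 to 0.42 elsewhere. The spot SD was above 1 on 5 arrays for miR-205 and on 9 for miR-31. For miR-31, 1 of the 4 spots was more than 4-fold below the median of the 4 on 6 arrays. On MMTV-PymT replicate 3 it read 148.4 where the other spots read 7661, 7970 and 8094. The MMTV-PymT minimum of 2927 rests on that spot.

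Whether these miRNAs follow the basal class was the first comparison. Of the 3, 1 changed between basal and luminal tumors (miR-203, lower in basal), while 70.7% of all miRNAs passed in either direction and 26.0% were lower in basal tumors. 0 of 3 were called higher, beside 44.6% of all miRNAs. miR-203 was lower in basal tumors by a log2 difference of -2.34 ± 0.34 (SE, 17 against 24 tumors, limma adjusted p = 2.74e-08). Because most basal arrays were at the floor, the size of this difference is limited by the array. With each dim array held at the lowest signal it could call, MMTV-PymT was at least 2.71-fold above C3TAg and at least 3.09-fold above p53-/-. For MMTV-Hras the bounds were 2.65-fold and 3.02-fold, for MMTV-Wnt 1.36-fold and 1.54-fold, and for MMTV-H2N 1.09-fold and 1.25-fold. MMTV-C-Myc was not above either limit (log2 -0.22 and -0.03). These bounds carry no test. With floor signals taken as measured, limma gave adjusted p = 8.56e-06 and 1.16e-06 for MMTV-PymT. For MMTV-Hras it gave adjusted p = 2.08e-05 and 4.28e-06. Without C3TAg and p53-/- the difference was -2.76 (limma adjusted p = 0.000683), with only the 5 Brca1-/-p53+/- tumors on the basal side. Within FVB groups it was -2.12 (adjusted p = 0.00155). There C3TAg alone stood for the basal class, and 0 of its 5 arrays measured miR-203, so that size rests on floor signals. With the model as a random block the difference was -2.29 (adjusted p = 0.0180). Scaled to the brightest miRNAs it no longer passed (-0.33, adjusted p = 0.358).

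miR-205 did not pass, with a log2 difference of 0.43 ± 0.54 (limma adjusted p = 0.493, 95% interval -0.66 to 1.52), and neither did miR-31, at 0.09 ± 0.59 (adjusted p = 0.902, interval -1.10 to 1.27). The classes overlapped in both. Basal levels of miR-205 ran from 0.37 to 6.08 and luminal levels from -2.35 to 6.37. Those of miR-31 ran from 0.03 to 6.37 in basal and from -1.05 to 6.18 in luminal tumors. For both the answer depended on the scaling. Scaled to the 75th percentile they passed as higher in basal tumors, by 1.77 (adjusted p = 0.00162) for miR-205 and 1.42 (adjusted p = 0.0175) for miR-31. Without scaling the direction turned, to -0.95 (adjusted p = 0.147) and -1.30 (adjusted p = 0.0915).

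**Figure D2:**
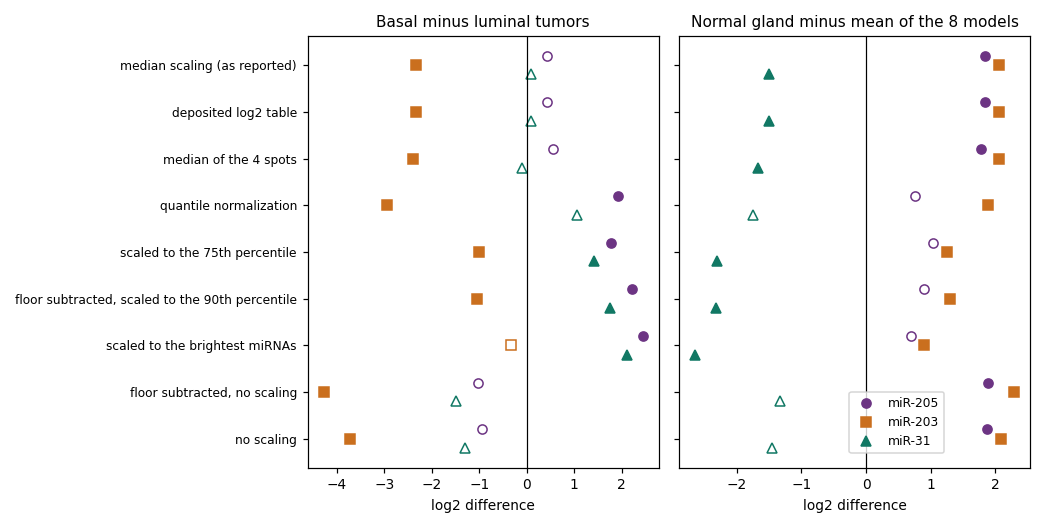
Log2 difference (x axis) of each member under 9 ways of scaling (y axis), basal minus luminal tumors on the left and normal gland minus the mean of the 8 models on the right; filled symbols passed limma at an adjusted p under 0.05. miR-203 lies left of 0 in every row of the left panel and passes in all but the scaling to the brightest miRNAs, while miR-205 and miR-31 cross 0 there.

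The other miRNAs of the same tissues gave the setting. All 5 of the miR-200 family fell in basal tumors, with a median log2 difference of -3.31 beside 0.55 over all miRNAs. On basal arrays the family was partly at the floor, with 0 to 3 of its 5 members above 3 times the floor on C3TAg arrays, 4 on each p53-/- array and 0 to 5 on Brca1-/-p53+/- arrays, so these sizes are limited by the array. miR-141, the family member with the largest fold, differed by -4.27 (limma adjusted p = 1.08e-10). Of 6 other skin miRNAs 0 rose and 3 fell, namely miR-27b (-2.98, adjusted p = 3.84e-10), miR-24 (-2.67, adjusted p = 2.55e-10) and miR-125b (-1.67, adjusted p = 0.000192), with a median of -1.40. Of 4 myoepithelial and smooth muscle miRNAs 2 rose and 2 fell. Those that rose were miR-222 (1.96, adjusted p = 2.98e-05) and miR-221 (1.23, adjusted p = 0.00514), and those that fell were miR-143 (-3.48, adjusted p = 1.76e-08) and miR-145 (-1.06, adjusted p = 0.00768), which are abundant in smooth muscle. Of 5 miRNAs listed for mammary progenitors 0 rose and 3 fell. These were miR-22 (-2.64, limma adjusted p = 1.76e-08), let-7a (-2.21, adjusted p = 2.14e-08) and let-7c (-1.13, adjusted p = 0.00202). The list does not say whether a miRNA is high or low in progenitor cells. The summed signal of the miR-200 family was 2.98 to 78.3 times the array median in basal tumors and 1.02 to 932.9 times in luminal tumors. Lists of other cell types moved as well, though the smooth muscle list is miR-143 and miR-145 again. Of the smooth muscle list 0 of 2 rose and 2 fell (summed signal 4.46 to 271.5 times the array median in basal and 19.7 to 594.7 times in luminal tumors), of the adipocyte list 1 of 3 rose and 2 fell (2.62 to 21.2 and 7.88 to 153.0), of the leukocyte list 1 of 4 rose and 2 fell (5.55 to 37.9 and 7.91 to 79.5), of the fibroblast list 0 of 3 rose and 1 fell (4.69 to 73.0 and 8.74 to 54.9), of the erythroid list 0 of 3 rose and 1 fell (3.34 to 228.2 and 18.5 to 1155) and 1 of 1 endothelial rose, while 0 of 3 skeletal muscle miRNAs passed. Their part in the results was not tested. In a bulk tumor, fewer cells of a type and less RNA per cell cannot be told apart.

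Differences within an array removed the scaling. The zero of such a difference has no meaning, since probes differ in brightness, and only the comparison between groups is read. Each of 6 differences was compared between classes and between normal gland and tumors by two-sided permutation tests of the means, with p adjusted over the 12 tests. miR-205 minus miR-203 was higher in basal than in luminal tumors by 2.77 (3.59 ± 1.32, SD, n = 17, against 0.82 ± 2.08, n = 24; adjusted permutation p = 0.00024). miR-203 minus miR-31 was lower in basal tumors by a difference of -2.43 (adjusted permutation p = 0.00661). miR-205 minus miR-31 did not differ detectably (0.34, adjusted permutation p = 0.72). No scaling enters these values, but in both comparisons with miR-203 its value on C3TAg and p53-/- arrays is a bound. With only the 3 basal tumors in which miR-203 was measured, neither passed, at 2.85 against miR-205 (adjusted permutation p = 0.0851) and -1.59 for miR-203 minus miR-31 (adjusted permutation p = 0.349). With model means as samples neither passed either, at 2.57 (adjusted exact permutation p = 0.107) and -2.23 (adjusted exact permutation p = 0.15). Splits of so few means leave little room to pass, so this is not read as an absence of a difference.

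The members were also set against the miR-200 family, with the limit that all 5 family members were above 3 times the floor on 2 of 17 basal arrays. Where family members are at the floor their mean is an upper limit, and the difference of miR-205, measured on every array, is a lower limit. miR-205 minus the mean of the 5 family members was higher in basal tumors by 3.61 (1.75 ± 1.02, SD, n = 17, against -1.86 ± 2.06, n = 24; adjusted permutation p = 0.00012). With the 2 basal arrays alone against the 24 luminal ones the difference was 4.54 (adjusted permutation p = 0.0369). Both are Brca1-/-p53+/- tumors, replicate 1 at 4.31 and replicate 4 at 1.04, so that value covers 1 model and not the basal class. By group its mean was lowest in MMTV-Hras (-4.98 ± 0.36, n = 5), then MMTV-H2N (-2.33 ± 0.35, n = 5) and MMTV-PymT (-1.79 ± 1.01, n = 6). MMTV-Wnt (0.07 ± 0.55, n = 4), normal gland (0.30 ± 0.31, n = 5) and MMTV-C-Myc (0.58 ± 0.87, n = 4) lay between, and p53-/- (1.40 ± 1.06, n = 7), C3TAg (1.87 ± 0.57, n = 5) and Brca1-/-p53+/- (2.12 ± 1.32, n = 5) had the highest values, which the floor sets in part and which have no order among themselves. On C3TAg arrays 2 of the 5 family members, and on p53-/- arrays 1, were above 3 times the floor on no array. All MMTV-Hras, MMTV-H2N and MMTV-PymT tumors were below all normal glands, since the highest of them was -0.37 and the lowest normal gland -0.05. In MMTV-Hras the family was at its highest mean level of the series (5.77) while miR-205 was at its lowest. miR-31 minus the family was higher in basal tumors by 3.27 (adjusted permutation p = 0.00068), and by 4.11 with the 2 basal arrays that measured both (adjusted permutation p = 0.137). miR-203 minus the family gave 0.84 (adjusted permutation p = 0.0409), but on most basal arrays both terms were at the floor, so nothing is read from it. That call was lost without any of 21 of the 41 tumors (lowest 0.74, without Brca1-/-p53+/- replicate 3), after floor subtraction (0.53) and with the 2 measured basal arrays (1.81). With the 8 model means as samples, 3 against 5, these differences kept their direction and did not pass (3.49 for miR-205, adjusted exact permutation p = 0.107). For miR-205 all 3 basal model means lay above all 5 luminal ones, and even that separation did not pass. Splits of 8 means are few, so a failure to pass here is not read as an absence of a difference.

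**Figure D3:**
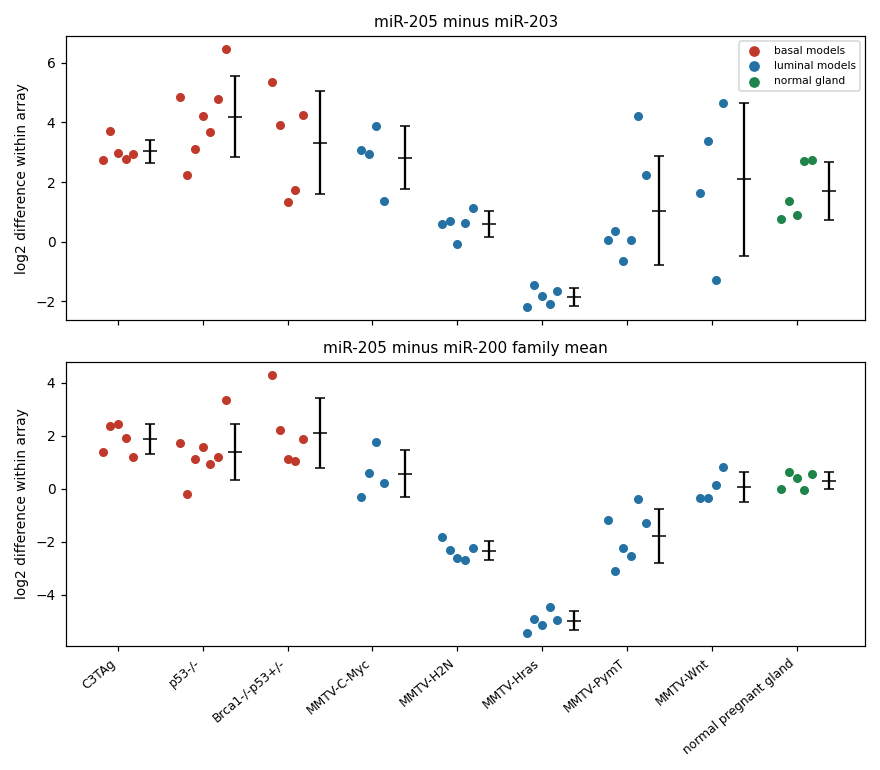
Difference on the same array (log2, y axis) of miR-205 minus miR-203 (top) and miR-205 minus the mean of the miR-200 family (bottom), by group (x axis), 1 point per array, with mean and SD as black bars. In the lower panel the 16 MMTV-H2N, MMTV-Hras and MMTV-PymT tumors lie below every normal gland, and MMTV-Hras is lowest at -4.98.

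Normal gland was then set against the unweighted mean of the 8 models. All 3 members passed, in a comparison where 65.3% of all miRNAs did. miR-205 was higher in normal gland by 1.84 ± 0.68 (SE, limma adjusted p = 0.0160), miR-203 was higher by 2.05 ± 0.43 (adjusted p = 6.39e-05), and miR-31 was lower at -1.50 ± 0.65 (adjusted p = 0.0407). The share of all miRNAs higher in normal gland was 27.5% and the share lower was 37.7%. The miR-203 call held under every scaling tried. That of miR-205 was lost at the 75th percentile (1.04, adjusted p = 0.151) and without normal gland replicate 5 (1.68, adjusted p = 0.0527). That of miR-31 was lost without scaling (-1.46, adjusted p = 0.0673), without any of normal gland replicates 1, 2, 3 and 5 (-1.28 to -1.59, adjusted p = 0.0541 to 0.124) and without MMTV-C-Myc replicate 3 (-1.43, adjusted p = 0.0509).

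On the same array, miR-205 minus miR-31 was higher in normal gland than in tumors by 3.40 (3.92 ± 0.58, SD, n = 5, against 0.52 ± 2.33, n = 41; adjusted exact permutation p = 0.0106), and miR-203 minus miR-31 by 3.68 (adjusted exact permutation p = 0.00661). miR-203 was measured in 27 of the 41 tumors, and with those alone its difference from miR-31 was 2.85 and did not pass (adjusted permutation p = 0.0715). miR-205 minus miR-203 did not differ detectably, at -0.28 (adjusted exact permutation p = 0.792). Markers of other tissues also moved with normal gland. All 3 measured skeletal muscle miRNAs, all 3 adipocyte miRNAs, both smooth muscle miRNAs, 2 of 3 erythroid, 2 of 3 fibroblast and 2 of 4 leukocyte miRNAs were higher there, and 1 of 1 endothelial was lower. The summed smooth muscle signal was 150 to 224.1 times the array median in normal gland and 4.46 to 594.7 times in tumors, the skeletal muscle signal 4.77 to 189.1 and 0.491 to 105.6 times, and the adipocyte signal 28.4 to 130.0 and 2.62 to 153.0 times. The erythroid signal was 277.1 to 594.8 and 3.34 to 1155 times, the leukocyte signal 27.6 to 66.9 and 5.55 to 79.5 times, and the fibroblast signal 38.4 to 73.9 and 4.69 to 73.0 times. Their part in the result was not tested. Of the epithelial miR-200 family 2 of 5 were higher in normal gland (miR-200a by 2.61, limma adjusted p = 0.000844, and miR-200b by 1.76, adjusted p = 0.0102).

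Each model was also compared with normal gland, where the share of all miRNAs that passed was 73.7% for C3TAg, 74.0% for p53-/-, 70.1% for Brca1-/-p53+/-, 61.7% for MMTV-C-Myc, 51.2% for MMTV-H2N, 18.6% for MMTV-Hras, 46.1% for MMTV-Wnt and 35.9% for MMTV-PymT. These comparisons share the 5 normal glands. miR-205 fell in 3 of 8 models. It was lower in MMTV-Hras by a log2 difference of -3.96 ± 0.90 (SE, limma adjusted p = 0.00101), where 11.7% of all miRNAs were lower, in MMTV-H2N by -2.80 ± 0.90 (adjusted p = 0.00895), where 22.5% were, and in Brca1-/-p53+/- by -2.24 ± 0.90 (adjusted p = 0.0247), where 33.2% were. C3TAg had a value of -1.91 (limma adjusted p = 0.0542) with no overlap between the groups, a trait not counted over all miRNAs. Its sign turned in 4 of 14 alternative settings (1.41 with scaling to the brightest miRNAs). The MMTV-Hras call held in all 14 alternative settings and without any single array. The Brca1-/-p53+/- call was lost without replicate 3, 4 or 5 of that model or replicate 5 of normal gland (-1.71, adjusted p = 0.100, without replicate 3), and at the 75th percentile (-0.75, adjusted p = 0.455). The MMTV-H2N call was lost with quantile normalization (-1.99, adjusted p = 0.0799).

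miR-203 fell in 5 of 8 models, and in all 5 no tumor reached the lowest normal gland. How many of all miRNAs were likewise free of overlap was not counted, so nothing particular to miR-203 is read from it. The share of all miRNAs that were lower was 29.9% in C3TAg, 26.6% in p53-/-, 33.2% in Brca1-/-p53+/-, 21.3% in MMTV-C-Myc and 22.5% in MMTV-H2N. It was at least 3.56-fold lower in C3TAg and at least 4.05-fold lower in p53-/- than in normal gland, bounds that carry no test. With floor signals taken as measured, it passed limma in both models (adjusted p = 1.86e-06 and 3.06e-07). It was lower in Brca1-/-p53+/- by a log2 difference of -3.87 ± 0.57 (SE, adjusted p = 2.00e-07), in MMTV-C-Myc by -2.05 ± 0.60 (adjusted p = 0.00375) and in MMTV-H2N by -1.70 ± 0.57 (adjusted p = 0.0116). The values of MMTV-Wnt (-1.39, adjusted p = 0.0544), MMTV-Hras (-0.42, adjusted p = 0.741) and MMTV-PymT (-0.39, adjusted p = 0.571) did not pass. The C3TAg call was lost at the 75th percentile (-1.07, adjusted p = 0.0520) and its sign turned with scaling to the brightest miRNAs (0.07, adjusted p = 0.895). The MMTV-H2N call was lost without replicate 5 of that model (-1.34, adjusted p = 0.0516) and at the 75th percentile (-0.9995, adjusted p = 0.0893).

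miR-31 rose in 3 of 8 models, MMTV-PymT (3.48 ± 0.84, SE, limma adjusted p = 0.000826), p53-/- (2.94 ± 0.81, adjusted p = 0.00120) and MMTV-Wnt (2.86 ± 0.93, adjusted p = 0.0101), that is in 1 of the 3 basal and 2 of the 5 luminal models. The share of all miRNAs that were higher was 15.9%, 47.3% and 17.1%, respectively. In MMTV-PymT 5 of 6 tumors, in p53-/- 6 of 7 and in MMTV-Wnt 3 of 4 were above the highest normal gland. No such count was made over all miRNAs. The MMTV-PymT call held in all 14 alternative settings and without any single array. The p53-/- call was lost without scaling (1.46, adjusted p = 0.130). The MMTV-Wnt call was lost without replicate 3 (2.03, limma adjusted p = 0.0818) and with the number format of the arrays as a block (2.60, adjusted p = 0.137). All 4 MMTV-Wnt arrays are among the 7 with 3-digit values, so format and model can hardly be told apart there. The remaining 5 models did not pass, with values from -0.51 in MMTV-H2N to 1.32 in MMTV-C-Myc.

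**Figure D4:**
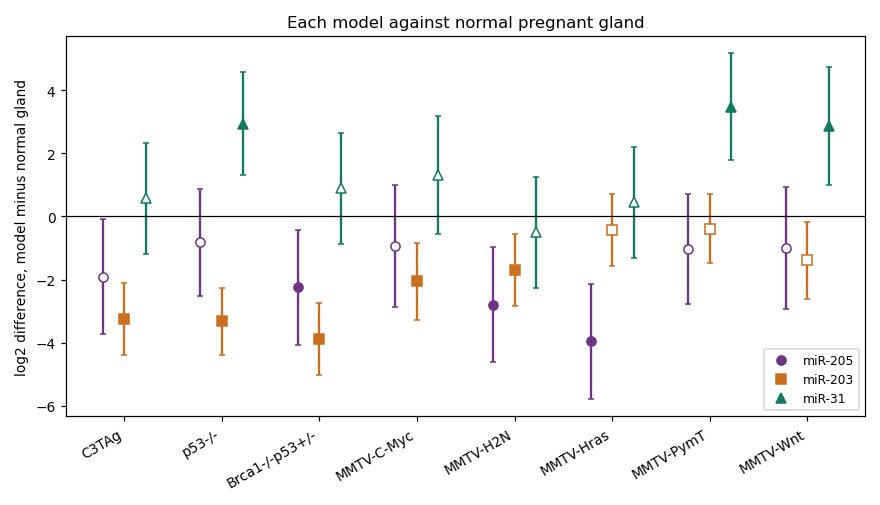
Log2 difference of each model minus normal pregnant gland (y axis) for miR-205, miR-203 and miR-31, with 95% intervals from limma; filled symbols passed at an adjusted p under 0.05. miR-205 is lowest in MMTV-Hras at -3.96, miR-203 is low in the 3 basal models with fitted values that rest on floor signals in C3TAg and p53-/-, and miR-31 is highest in MMTV-PymT at 3.48.

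Set against the mean of the other 8 groups, the models had different profiles. MMTV-Hras combined low miR-205 with high miR-203 (1.57 ± 0.43, SE, limma adjusted p = 0.00144), where 35.9% of all miRNAs were lower and 24% higher. MMTV-PymT combined high miR-203 (1.61 ± 0.39, adjusted p = 0.000421) with high miR-31 (2.42 ± 0.60, adjusted p = 0.000521), where 61.1% of all miRNAs passed and 23.4% were higher. p53-/- had low miR-203 (adjusted p = 8.59e-05) and high miR-31 (1.80 ± 0.57, adjusted p = 0.00428), where 76.3% passed, 21.6% lower and 54.8% higher. MMTV-H2N had low miR-31 (-2.07 ± 0.65, adjusted p = 0.00940), where 38.3% passed and 17.7% were lower. C3TAg (adjusted p = 0.000919, 75.4% passed, 30.2% lower) and Brca1-/-p53+/- (-2.31, adjusted p = 2.64e-05, 48.5% passed, 26.9% lower) were low in miR-203 alone of the 3. No size is given for miR-203 in C3TAg and p53-/-, where 0 of 12 arrays measured it, and the fitted values of the other groups for miR-203 are set against a mean that includes these floor signals. MMTV-Wnt passed for miR-31 (1.72, adjusted p = 0.0359, 62.9% passed, 22.5% higher) and lost the call without replicate 2 (1.84, adjusted p = 0.0555), 3 (0.89, adjusted p = 0.336) or 4 (1.72, adjusted p = 0.0771), and in 7 of 14 alternative settings (1.16 to 1.61). For miR-203 in MMTV-Hras the call was lost within FVB groups (1.04, adjusted p = 0.0609), and in MMTV-PymT with scaling to the brightest miRNAs (0.77, adjusted p = 0.0525). MMTV-C-Myc passed for 0 of 3, in a comparison where 34.1% of all miRNAs did. The C3TAg call turned in sign at the 75th percentile (0.04, adjusted p = 0.922), and without scaling that of miR-31 in p53-/- was lost (0.18, adjusted p = 0.814).

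MMTV-Wnt replicate 3 was the single tumor with the largest departures. Relative to the mean of the other 3 MMTV-Wnt tumors its miR-205 differed by -8.14, the fourth lowest of 334 miRNAs, and its miR-203 by -3.64. Its miR-31 was the most raised of all 334, by 3.33. The lowest ranks belonged to the miR-200 family. miR-200a differed by -8.65 (a signal of 403.1 against 179733, 142348 and 43538), miR-200c by -8.52, miR-200b by -8.49, miR-141 by -7.78 and miR-429 by -7.73. The difference of miR-205 from the family mean on that array was 0.14, inside the range of the other MMTV-Wnt tumors, and miR-205 and the family were lower by nearly the same factor. All 5 family members and the 3 members were still above 3 times the floor. The leukocyte list stood at 79.5 times the array median there against 15.9 to 25.9 in the other MMTV-Wnt tumors, the fibroblast list at 54.9 against 14.6 to 37.1, and the smooth muscle list at 27.6 against 96.4 to 594.7. Their part in the result was not tested. Without this tumor, the miR-205 value of MMTV-Wnt minus normal gland turned from -0.99 (limma adjusted p = 0.395) to 1.04 (adjusted p = 0.236).

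**Figure D5:**
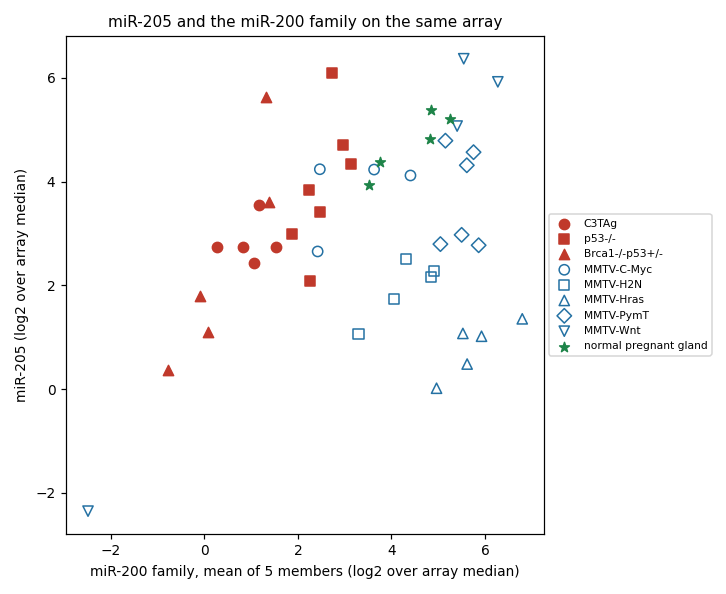
Level of miR-205 (y axis) against the mean level of the 5 miR-200 family members (x axis), both log2 over the array median, 1 point per array, by group. MMTV-Hras tumors lie at the right with low miR-205, basal tumors at the left, and MMTV-Wnt replicate 3 alone at the lower left, at -2.35 for miR-205.

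Within groups, miR-205 varied most closely with the miR-200 family, in part through MMTV-Wnt replicate 3. Over 46 arrays, after removing the group means, the miRNAs with the highest Pearson r to miR-205 among 333 others were miR-200b (0.844), miR-200a (0.834) and miR-200c (0.789). Without MMTV-Wnt replicate 3 the values were 0.593, 0.595 and 0.448, and miR-200a and miR-200b were still the first and second. The other family members dropped, miR-200c to rank 8, miR-141 to rank 13 (from 0.727 to 0.417) and miR-429 to rank 47 (from 0.73 to 0.295). Across the 9 group means the correlations with miR-200b, miR-200a and miR-200c were -0.0239, -0.111 and -0.121. The closest to miR-203 were miR-141 (0.778), miR-30e (0.73) and miR-32 (0.691), of which miR-32 was above 3 times the floor on 17 arrays. Without MMTV-Wnt replicate 3 miR-30e was first (0.765) and miR-32 second (0.743), and miR-141 was at rank 12 (0.656). The closest to miR-31 were miR-221 (0.561), miR-222 (0.543), a pair that shares a seed, and miR-223 (0.537), an abundant miRNA of myeloid cells, at 0.534, 0.523 and 0.46 without that tumor. These correlations share the array, its depth and its scaling, and are a description.

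Whether the members varied together within groups was asked next. Correlations of within-group deviations were computed for 3 pairs in each class, 6 in all, with permutations within groups. In the 24 luminal tumors miR-203 and miR-31 had Pearson r = -0.565 (permutation p = 0.0173, adjusted p = 0.104) and Spearman rho = -0.507 (permutation p = 0.025, adjusted p = 0.15). Without the pair of tumors farthest in miR-203 (MMTV-PymT replicate 5 and MMTV-Wnt replicate 3) r was -0.416. miR-205 and miR-203 had r = 0.565 in luminal tumors (adjusted permutation p = 0.365) and 0.423 in the 17 basal tumors (adjusted permutation p = 0.636). None of the 6 passed after adjustment, in Pearson or in Spearman form.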

How the data were processed

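Total RNA of 41 tumors and 5 normal glands was labelled with Hy3 dye. The authors used a custom Agilent array of 334 mouse miRNAs with 4 spots each. The deposited raw table holds the processed signal intensity of 1336 spots per array, from Feature Extraction with controls, non-mouse and negative-strand probes removed. The deposited series matrix holds log2 values after the authors' global median scaling, and was checked against the raw table (column medians 8.00320 to 8.00326). 1 further column of values matched no sample and was not used.

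Here the log2 intensity of each spot minus the array median was averaged over the 4 spots. Groups were taken from the labels. limma 3.58.1 in R 4.3.3 was fitted to all 334 miRNAs (basal against luminal on 41 tumors; 1 mean per group otherwise), with Benjamini-Hochberg adjusted p over 334 and a threshold of 0.05, two-sided. Within-array differences used 100000 resamples for the classes, and every split of the samples for normal gland (exact). Both procedures were tested on simulated data. Bounds took, per dim array, the lowest signal above 3 times the floor (5th percentile of spots). The number of arrays limits the precision. Members and lists were chosen with earlier results of these data known. The text names the 3 members, the 3 miRNAs most correlated with each, and up to 4 of each list by fold. Alternatives covered scaling, floor, spots, filters, weights, blocks, strain, models and single arrays left out.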

Additional observations from a re-analysis of the deposited data

Results flagged for a closer look

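In 27 sets of values (3 miRNAs in 9 groups) the end value was compared with the range of its group, and 3 stood apart, where chance gives about 1 in 20. All 3 were for miR-205. MMTV-Wnt replicate 3 lay at a level of -2.35, with a gap to the next tumor of 0.851 of the range of its group. MMTV-C-Myc replicate 4 lay at 2.65, below the others at 4.12 to 4.24, with a gap of 0.924 of the range. C3TAg replicate 2 lay at 3.55, above the others at 2.44 to 2.74, with a gap of 0.726 of the range. Its spots read 751.4, 1219, 1315 and 4888, so that value rests in part on the brightest spot.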

How the results depend on the processing

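Scaling mattered most. Basal minus luminal, miR-205 was 1.77 at the 75th percentile, 2.45 with scaling to the brightest miRNAs, 1.92 with quantile normalization and 2.22 after floor subtraction with scaling to the 90th percentile, all past the threshold, and -0.95 without scaling and -1.02 after floor subtraction without scaling. For miR-31 the same settings gave 1.42, 2.10 and 1.74 past the threshold (quantile 1.07, not past it), and -1.30 and -1.49. miR-203 did not pass only when scaled to the brightest miRNAs (-0.33), of 27 settings. For normal gland minus the models, miR-205 lost its call at the 75th percentile (1.04), with the brightest miRNAs (0.69), quantile (0.76) and the 90th percentile (0.90), and miR-31 with quantile (-1.74), without scaling (-1.46) and after floor subtraction without scaling (-1.34). miR-203 kept its call in 24 of 24 settings. Against normal gland, the sign turned for miR-205 in C3TAg (0.26, 1.41, 1.08 and 1.07 at the 75th percentile, brightest, quantile and 90th percentile) and in p53-/- (0.49, 1.05, 0.68 and 0.57), for miR-203 in C3TAg (0.0730, brightest) and for miR-31 in MMTV-H2N (0.20 and 0.0092, 75th percentile and brightest). Without scaling, and after floor subtraction, it turned for miR-31 in C3TAg (-0.36 and -0.9955), miR-203 in MMTV-Hras (0.0953 and 0.0918), MMTV-Wnt (0.31 and 0.32) and MMTV-PymT (0.48 and 0.48), and miR-205 in MMTV-Wnt (0.71 and 0.74). miR-203 in C3TAg against the other groups became 0.0396 (75th percentile) and 0.98 (brightest). The cause was not tested.

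Array weights turned miR-205 in MMTV-Wnt (0.11) and miR-203 in MMTV-PymT (0.0569) against normal gland. Basal minus luminal miR-31, near 0 as reported, turned with the median of the 4 spots (-0.11), within FVB (-0.98), with the model as a random block (-0.0359), with model means (-0.0524), and without MMTV-H2N (-0.46), MMTV-Hras (-0.21), p53-/- (-0.82) or both C3TAg and p53-/- (-0.66). miR-205 turned without MMTV-Hras (-0.0877), p53-/- (-0.0851) or both C3TAg and p53-/- (-0.25). In normal gland, miR-205 lost its call without MMTV-Hras (1.53) and with tumors pooled (1.81), and miR-31 without p53-/- (-1.30), MMTV-Wnt (-1.31) or MMTV-PymT (-1.22), with tumors pooled (-1.59) and with the 7 arrays of 3-digit values as a block (-1.45). Counts of calls, 236 and 218 as reported, were 97 and 95 among miRNAs at or above the median signal (fewer tested), 149 with the random block, 144 with model means and 147 without C3TAg and p53-/- for the classes, and 123 with quantile and 85 with tumors pooled for normal gland. The methods' t-test called 66.2% of miRNAs at its p threshold and 70.7% after Benjamini-Hochberg.

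For differences on the same array, subtracting the floor took miR-203 minus the family to 0.53, past the threshold no longer. With both miRNAs above 3 times the floor, basal minus luminal, miR-205 minus miR-203 was 2.85, miR-205 minus miR-31 -0.0282, miR-203 minus miR-31 -1.59, miR-203 minus the family 1.81 and miR-31 minus the family 4.11. For normal gland minus tumors, miR-205 minus miR-203 was 0.56 and miR-203 minus miR-31 2.85. None of these passed, with fewer arrays. Model means gave 2.57, -2.23 (miR-203 minus miR-31), 3.49, 0.91 and 3.15, none past the threshold. With few splits of 8 means, this is not read as an absence of a difference. Model means were not run for normal gland, where 1 mean against 8 cannot pass.

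Leaving out each array, basal minus luminal ranged from 0.21 to 0.61 for miR-205, -2.47 to -2.22 for miR-203 and -0.16 to 0.25 for miR-31, with 232 to 241 calls. Normal gland minus the models ranged from 1.58 to 2.04, 1.80 to 2.19 and -1.82 to -1.28. Differences on the array ranged, for the classes, from 2.60 to 2.94 (miR-205 minus miR-203), -0.0432 to 0.60 (miR-205 minus miR-31, below 0 without MMTV-Wnt replicate 3), -2.73 to -2.20 (miR-203 minus miR-31), 3.45 to 3.77, 0.74 to 1.02 and 3.05 to 3.74 (miR-205, miR-203 and miR-31 minus the family), and for normal gland from -0.54 to -0.04, 3.18 to 3.61, 3.46 to 4.14, 0.54 to 0.79, 0.72 to 1.29 and -2.87 to -2.49, the last past the threshold without MMTV-Hras replicate 4. MMTV-Wnt minus normal gland ranged from -1.87 to 1.04 for miR-205 (1.04 without replicate 3), and MMTV-PymT minus normal gland from -0.76 to 0.0272 for miR-203 (0.0272 without replicate 5).

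Samples of the same replicate number shared only a number (mean correlation of deviations 0.028, against -0.006 for other numbers). With the replicate number as a block, basal minus luminal was 0.26, -2.28 and 0.06 for miR-205, miR-203 and miR-31 with 231 calls, and normal gland minus the models 1.92, 2.09 and -1.45. The block added calls against normal gland for miR-205 in C3TAg (limma adjusted p = 0.0348) and miR-203 in MMTV-Wnt (-1.63), and ended none of the calls compared. Signal over the floor limits miR-203 in C3TAg and p53-/-, where 0 of 12 arrays measured it. The median of the 4 spots, the block of 3-digit arrays and the omission of both C3TAg and p53-/- were chosen after seeing the data.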
